A study of Homo sapiens with 24 samples.

Results

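MAGEA12 and CSAG1, a head-to-head pair of cancer-testis antigen genes on the X chromosome, are described here with the 4 related copies CSAG3, MAGEA2, MAGEA3 and MAGEA6. They were taken by gene name from the deposited tables of raw read counts and are 6 of 58735 genes. They were selected on their genotype fold changes in the normoxia libraries, so normoxia values of the 6, and their differences between oxygen levels, are given as a description with no test. The hypoxia libraries did not enter that choice but carry the same genotypes. Their p-values and ranks for the 6 genes are therefore not independent of it. The samples were HEK293T cells, a human embryonic kidney line, sequenced as messenger RNA in 6 groups of 4 libraries. In hypoxia (1% oxygen for 24 h) the groups were MIR210HG-KO, MIR210-KO and WT, and in normoxia (21% oxygen) they were again MIR210HG-KO, MIR210-KO and WT. MIR210HG is the host gene, a long non-coding RNA, of the hypoxia-responsive microRNA miR-210, which the MIR210 gene encodes. Neither the clonal state of the knockouts (1 clone or a pool) nor the origin of the 4 replicates (separate cultures or one) is stated in the labels. The p-values therefore measure the spread between these libraries, which may be technical, and a difference between genotypes cannot be told apart from a difference between clones or cultures.

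MAGEA genes encode cancer-testis antigens, proteins normally made in male germ cells and silent in most other tissues, where methylation of CpG sites in their promoters goes with silence. Many tumours make them, and peptides cut from them are shown on HLA molecules to T cells. MAGE proteins bind RING-type ubiquitin ligases, and MAGEA3 and MAGEA6 are known as partners of TRIM28. CSAG genes lie beside MAGEA genes and are named for chondrosarcoma, in which the first of them was described.

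The libraries held between 25556776 and 37858947 counts. MIR210HG had 0 counts in all 8 MIR210HG-KO libraries, and in hypoxia it averaged 20.7 ± 1.46 CPM (counts divided by the library size after scaling by trimmed mean of M values) in MIR210-KO cells and 19.1 ± 1.72 CPM in WT cells, and in normoxia 3.48 ± 1.07 CPM in MIR210-KO and 5.7 ± 0.647 CPM in WT cells (SD, n = 4 each). The MIR210 hairpin, which lies inside MIR210HG, had 0 counts in all 4 hypoxia MIR210HG-KO libraries, 11, 6, 6 and 10 counts in the hypoxia libraries labelled MIR210-KO and 14, 8, 2 and 6 counts in hypoxia WT. In hypoxia it was thus not lower in the libraries labelled MIR210-KO than in WT. In normoxia it had 0 counts in all MIR210HG-KO libraries, 1 count over the 4 labelled MIR210-KO and 3 counts over the 4 WT libraries, too few to compare. Reads of the host transcript can be counted there, mature miR-210 is not measured in these libraries and the labels do not give the edit, so the MIR210-KO label could not be checked and values given for MIR210-KO are those of the libraries so labelled. Hypoxia WT replicates 1 and 3, hypoxia MIR210-KO replicate 1 and normoxia MIR210HG-KO replicate 3 lay farthest from their group mates, at root mean square log2 distances of 0.385 to 0.43 over the 19952 genes tested, against 0.328 to 0.384 for the other 20. These 4 are called outlying below, although no clear gap sets them apart from the rest. A fit without them keeps only replicates 2 and 4 of hypoxia WT. All 15 markers of HEK293 cells on the list had counts in every group, and in hypoxia their summed level was 726 to 759 CPM in MIR210HG-KO, 1640 to 1740 CPM in MIR210-KO and 1470 to 1740 CPM in WT libraries. In MIR210HG-KO over WT in hypoxia 12 of the 15 fell and 3 did not pass, where 30.2% of all tested genes were lower and 24.4% higher (adjusted p under 0.05, edgeR). The falls were led by those of NEFM, a neurofilament gene (log2 fold change -2.19 ± 0.09 SE, adjusted p = 3.39e-19), and the transcription factor gene GATA3 (-2.17 ± 0.10, adjusted p = 7.28e-18). In MIR210-KO over WT GATA3 fell as well (-0.65 ± 0.091, adjusted p = 3.16e-07) and NEFM did not pass (adjusted p = 0.797). Other markers on the list moved in both directions there. CDH1 (2.27 ± 0.1, adjusted p = 1.99e-18) and KRT8 (2.03 ± 0.069, adjusted p = 2.09e-21) rose, and EYA1 fell (-1.05 ± 0.081, adjusted p = 1.1e-12). HEK293 markers thus changed in both knockouts, and their part in the results was not tested.

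The 6 genes lie within 71 kb of the X chromosome (GRCh38, positions from the deposited tables). MAGEA3 (152698752 to 152702347, plus strand) and MAGEA6 (152766136 to 152769747, minus strand) stand at the ends. CSAG1 (152727484 to 152733735, minus strand) and MAGEA12 (152733779 to 152737669, plus strand) start 44 bases apart and run away from each other. MAGEA2 (152749863 to 152753884, minus strand) and CSAG3 (152753921 to 152760222, plus strand) start 37 bases apart in the same arrangement. A further copy of the second pair, MAGEA2B and CSAG2, lies between MAGEA3 and CSAG1, and the pseudogene CSAG4 overlaps MAGEA12 by 3843 bases on the same strand.

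**Figure D1:**
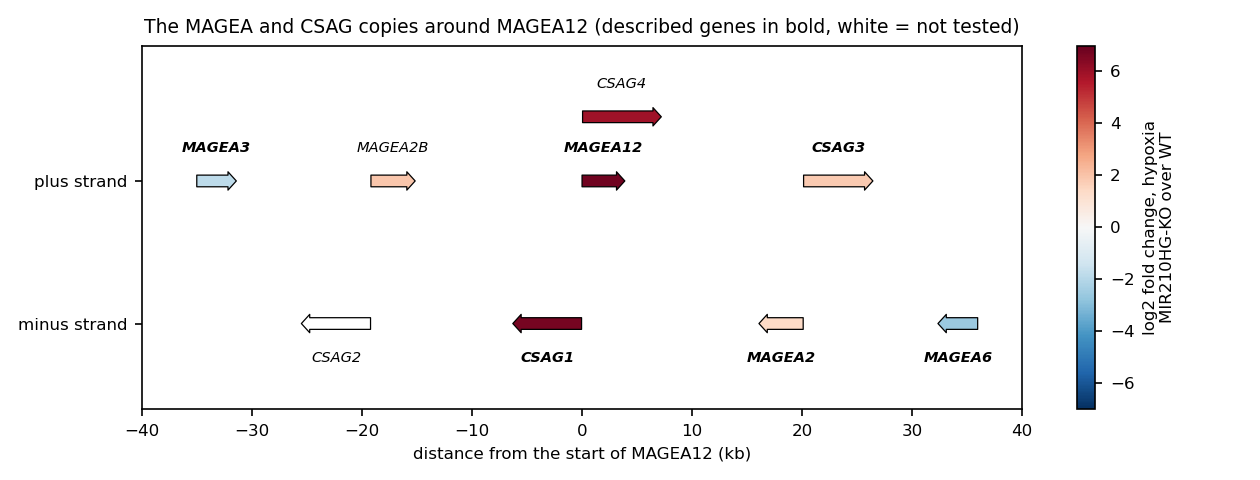
Positions of the 6 genes (bold names) and of MAGEA2B, CSAG2 and CSAG4, as distance in kb from the start of MAGEA12, with arrows pointing in the direction of transcription on either strand. Colour gives the log2 fold change of MIR210HG-KO over WT in hypoxia: the central MAGEA12 and CSAG1 stand at 6.79 and 6.71, and the outer MAGEA3 and MAGEA6 at -1.83 and -2.62.

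Because each MAGEA and CSAG pair starts so close together, both genes of a pair share one stretch of promoter DNA. RefSeq promoters (GRCh38.p14, 250 bases before to 50 after a gene's start) were matched for all 6 genes. The longest run found in all 6, read on either strand, was 24 bases. It is shown in capitals below in the MAGEA12 promoter (chrX:152733507-152733806, plus strand), and then with 30 bases on each side in the 3 versions that the 6 genes carry, read along the MAGEA gene. The stretch of MAGEA12 and CSAG1 is chrX:152733715-152733798 (plus strand), that of MAGEA2 and CSAG3 chrX:152753849-152753932 (minus strand), that of MAGEA3 chrX:152698678-152698761 (plus strand) and that of MAGEA6 chrX:152769722-152769805 (minus strand).
MAGEA12 promoter: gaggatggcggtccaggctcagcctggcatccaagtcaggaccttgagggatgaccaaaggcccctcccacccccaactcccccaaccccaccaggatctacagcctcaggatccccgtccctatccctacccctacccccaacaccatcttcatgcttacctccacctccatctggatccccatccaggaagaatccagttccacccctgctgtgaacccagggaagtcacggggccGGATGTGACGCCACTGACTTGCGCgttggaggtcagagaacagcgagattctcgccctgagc
MAGEA12 and CSAG1: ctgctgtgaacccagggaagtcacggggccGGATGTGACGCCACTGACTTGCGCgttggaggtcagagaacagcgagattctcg
MAGEA2 and CSAG3: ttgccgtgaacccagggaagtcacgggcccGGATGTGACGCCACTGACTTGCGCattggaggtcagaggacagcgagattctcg
MAGEA3 and MAGEA6: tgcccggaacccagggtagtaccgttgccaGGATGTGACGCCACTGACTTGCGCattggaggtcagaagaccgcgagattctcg

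Over these 84 bases, compared position by position with no gaps, MAGEA12 was identical to MAGEA2 and CSAG3 at 79 bases and to MAGEA3 and MAGEA6 at 61 bases. Each of the 3 versions held 7 CpG sites. The full promoters of MAGEA3 and MAGEA6 were identical at 300 of 300 bases. The run GGATGTGACGCCACTGACTTGCGC occurred, on either strand, in 11 of 35116 promoters in the table (0.0313%), all of MAGEA or CSAG genes or of MAGEA transcripts running the other way. The letters just before it differ between the genes. CCGGATGTGACG, which overlaps the run, stood in the promoters of MAGEA12, CSAG1, CSAG3 and MAGEA2 but not of MAGEA3 and MAGEA6, and in 16 promoters (0.0456%) of the table. CAGGATGTGACG stood in MAGEA3 and MAGEA6 and in 7 promoters (0.0199%) of the table. Both motifs were chosen after the sequences and levels were seen, and a match is a description of the letters only.

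MAGEA12 had the highest level of the 6 in MIR210HG-KO cells and was near the limit of detection in MIR210-KO cells. In hypoxia it had 1412, 1070, 1289 and 1005 counts in the 4 MIR210HG-KO libraries, 2, 1, 4 and 0 in MIR210-KO and 14, 12, 15 and 7 in WT. In normoxia it had 1818, 1750, 1691 and 1545 counts in MIR210HG-KO, 2, 2, 1 and 1 in MIR210-KO and 34, 12, 7 and 12 in WT. No library of one genotype reached those of another at either oxygen level, and WT cells held a low but counted level between the knockouts. In CPM the hypoxia means were 36.7 ± 1.93 in MIR210HG-KO, 0.054 ± 0.0576 in MIR210-KO and 0.33 ± 0.109 in WT (SD, n = 4 each). In hypoxia the log2 fold change of MIR210HG-KO over WT was 6.79 ± 0.17 (SE, adjusted p = 1.35e-24, edgeR quasi-likelihood test with Benjamini-Hochberg adjustment), the second highest of the 19952 genes tested. In normoxia, where the genes were chosen, MAGEA12 was the highest of them, so its rank in hypoxia is not independent of the choice. MIR210-KO over WT in hypoxia was -2.57 ± 0.54 (adjusted p = 0.000154, edgeR), and -3.35 without MIR210-KO replicate 3, which held 4 of the 7 counts. MIR210HG-KO over MIR210-KO in hypoxia was 9.36 ± 0.23 (adjusted p = 3.57e-25, edgeR), and 10.14 without that library. In bulk RNA, fewer cells that express the gene and less RNA per cell cannot be told apart.

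CSAG1, the partner of MAGEA12 on the other strand, followed the same order of genotypes at a lower level. In hypoxia it had 631, 432, 633 and 411 counts in MIR210HG-KO, 0, 5, 1 and 1 in MIR210-KO and 7, 7, 1 and 7 in WT. In normoxia it had 548, 540, 576 and 481 counts in MIR210HG-KO, 0, 1, 0 and 0 in MIR210-KO and 15, 1, 12 and 4 in WT. The MIR210HG-KO libraries stood far above all others, while MIR210-KO and WT libraries overlapped at both oxygen levels. The hypoxia means were 16 ± 1.38 CPM in MIR210HG-KO, 0.0486 CPM in MIR210-KO and 0.15 CPM in WT. In hypoxia MIR210HG-KO over WT was 6.71 ± 0.25 on the log2 scale (adjusted p = 2.88e-20, edgeR), the third highest of all genes tested, and MIR210HG-KO over MIR210-KO was 8.17 ± 0.30 (adjusted p = 6.33e-21, edgeR). MIR210-KO over WT in hypoxia, at -1.47 ± 0.69, did not pass (adjusted p = 0.0691, edgeR), although it passed with DESeq2 (adjusted p = 0.0275), with no filter on low counts (0.0367) and without MIR210-KO replicate 2 (0.0132), WT replicate 3 (0.0195) or normoxia WT replicate 2 (0.0432). Without MIR210-KO replicate 2, which held 5 of the 7 counts, MIR210HG-KO over MIR210-KO was 9.34. Of the 100-base windows of the longest transcript, 100% in MAGEA12 and 99.6% in CSAG1 occur in no other annotated gene, so their counts can be separated from those of the paralogs by sequence. How reads that overlap several genes were counted is not given in the sources used here, so reads in the overlap of MAGEA12 and CSAG4 could have gone to either.

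**Figure D2:**
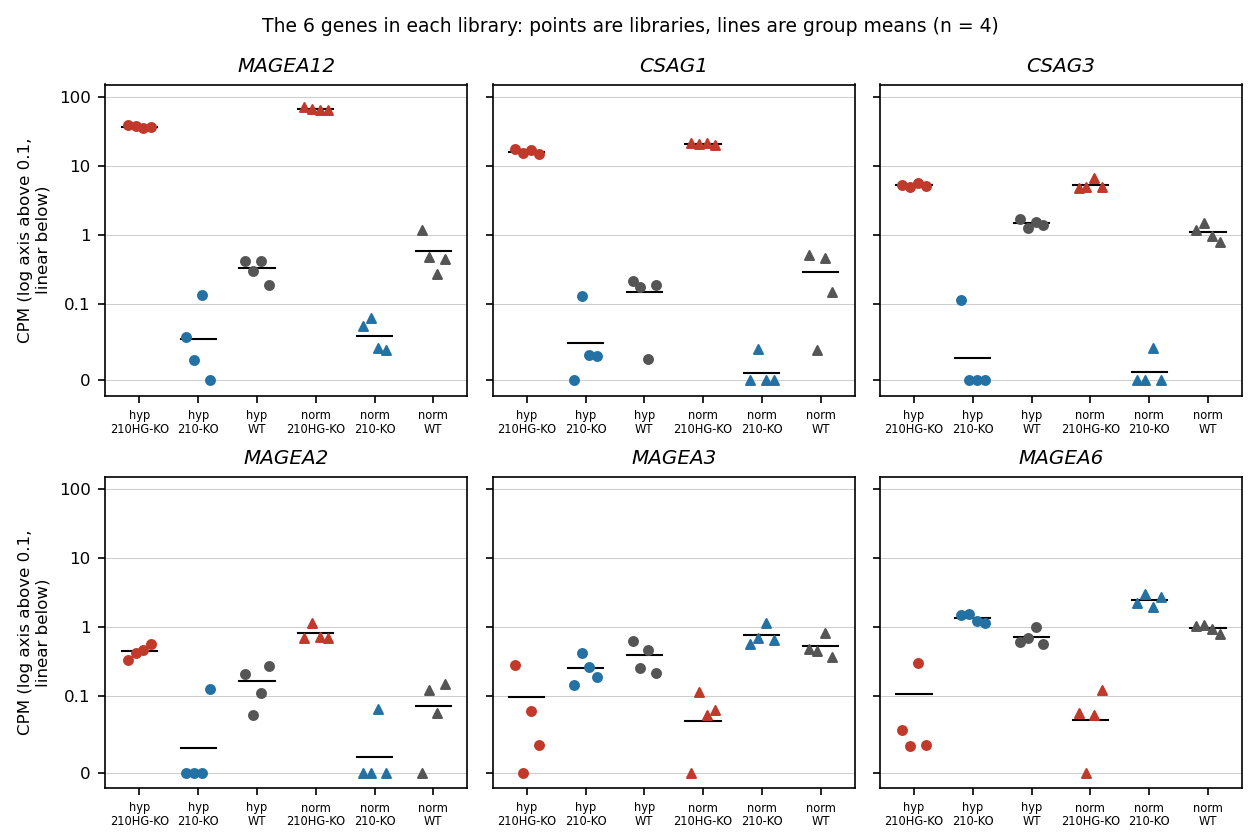
CPM of each of the 6 genes (y axis, logarithmic above 0.1 and linear below) in each library, with the 3 hypoxia groups (circles) left of the 3 normoxia groups (triangles) and the group mean as a line (n = 4). MAGEA12 and CSAG1 stand above 10 CPM in MIR210HG-KO libraries alone, CSAG3 is nearly absent from MIR210-KO libraries, and MAGEA6 is lowest in MIR210HG-KO libraries.

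CSAG3 and MAGEA2 form the second head-to-head pair, and CSAG3 differed from MAGEA12 in being well counted in WT cells. In hypoxia CSAG3 had 191, 140, 207 and 142 counts in MIR210HG-KO, 4, 0, 0 and 0 in MIR210-KO and 56, 49, 56 and 52 in WT. In normoxia CSAG3 had 125, 127, 180 and 118 counts in MIR210HG-KO, 0, 0, 1 and 0 in MIR210-KO and 35, 37, 25 and 21 in WT. All 3 genotypes were apart at both oxygen levels, in the order MIR210HG-KO, WT, MIR210-KO. In hypoxia it averaged 5.2 ± 0.288 CPM in MIR210HG-KO, 0.0285 CPM in MIR210-KO and 1.46 ± 0.194 CPM in WT (SD, n = 4). MIR210HG-KO over WT in hypoxia was 1.83 ± 0.20 on the log2 scale (adjusted p = 2.63e-09, edgeR). MIR210-KO over WT was -5.44 ± 0.43 (adjusted p = 2.29e-12, edgeR), the 16th lowest of 19952 genes, and MIR210HG-KO over MIR210-KO was 7.27 ± 0.37 (adjusted p = 3.37e-17, edgeR). All 4 hypoxia MIR210-KO counts of CSAG3 came from replicate 1, and without it the group was at 0.

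MAGEA2 had few counts in every group. In hypoxia it had 12, 12, 17 and 16 counts in MIR210HG-KO, 0, 0, 0 and 4 in MIR210-KO and 7, 3, 4 and 10 in WT. In normoxia it had 18, 30, 19 and 17 counts in MIR210HG-KO, 0, 0, 2 and 0 in MIR210-KO and 0, 3, 2 and 4 in WT. MIR210HG-KO libraries were above the others at both oxygen levels, and MIR210-KO and WT libraries overlapped. In hypoxia MIR210HG-KO over WT was 1.40 ± 0.53 on the log2 scale (adjusted p = 0.0259, edgeR), MIR210-KO over WT was -2.32 ± 0.82 (adjusted p = 0.0163) and MIR210HG-KO over MIR210-KO was 3.72 ± 0.72 (adjusted p = 4.95e-05). The first of these did not pass without MIR210HG-KO replicate 4, WT replicate 2, WT replicate 3 or the 4 outlying libraries (adjusted p of 0.0701, 0.0871, 0.0678 and 0.0816), and the second did not pass without MIR210-KO replicate 1, MIR210-KO replicate 2, WT replicate 4 or the 4 outlying libraries (0.0528, 0.0608, 0.0624 and 0.0792), while the group was at 0 without MIR210-KO replicate 4. In sequence, 97.8% of the 100-base windows of MAGEA2 also occur in MAGEA2B and 86.6% of those of CSAG3 in CSAG2, so how reads were split between these copies is uncertain. Reads with several matches could also have been left out, so the low counts of MAGEA2 need not mean a low level. MAGEA2B itself had 9, 10, 8 and 8 counts in hypoxia MIR210HG-KO libraries, 0 in each MIR210-KO library and 3, 6, 1 and 0 in WT. CSAG2 had 24 counts over the 4 hypoxia MIR210HG-KO libraries, 0 over MIR210-KO and 3 over WT.

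MAGEA3 and MAGEA6, the outer genes and the known TRIM28 partners, went the other way: both were lowest in MIR210HG-KO cells. In hypoxia MAGEA6 had 2, 1, 11 and 1 counts in MIR210HG-KO, 53, 59, 36 and 36 in MIR210-KO and 20, 28, 37 and 21 in WT. In normoxia MAGEA6 had 2, 0, 2 and 3 counts in MIR210HG-KO, 63, 75, 46 and 67 in MIR210-KO and 31, 27, 24 and 21 in WT. In CPM all 3 genotypes were apart at both oxygen levels, in the order MIR210-KO, WT, MIR210HG-KO. In hypoxia MAGEA6 in MIR210HG-KO over WT was -2.62 ± 0.42 on the log2 scale (adjusted p = 3.67e-06, edgeR), and -3.94 without MIR210HG-KO replicate 3, which held 11 of the 15 counts. MIR210-KO over WT was 0.90 ± 0.29 (adjusted p = 0.0091, edgeR). MIR210HG-KO over MIR210-KO was -3.52 ± 0.39 (adjusted p = 4.34e-09, edgeR), and -4.83 without that MIR210HG-KO library.

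For MAGEA3 the hypoxia counts were 10, 0, 3 and 1 in MIR210HG-KO, 5, 16, 8 and 6 in MIR210-KO and 21, 10, 17 and 8 in WT. The normoxia counts were 0, 3, 2 and 2 in MIR210HG-KO, 16, 17, 27 and 16 in MIR210-KO and 14, 11, 21 and 10 in WT. The MIR210HG-KO libraries were below all others in normoxia, but in hypoxia replicate 1 overlapped both other genotypes. MIR210HG-KO over WT in hypoxia was -1.83 ± 0.57 on the log2 scale (adjusted p = 0.00764, edgeR), -3.07 without MIR210HG-KO replicate 1, and -1.11 without the 4 outlying libraries, where it did not pass (adjusted p = 0.178). MIR210-KO over WT, at -0.59 ± 0.50 with a 95% interval of -1.56 to 0.39, did not pass (adjusted p = 0.325, edgeR) and was at 0.33 without the 4 outlying libraries. MIR210HG-KO over MIR210-KO, at -1.25 ± 0.61, did not pass (adjusted p = 0.0837, edgeR) but reached -2.47 without MIR210HG-KO replicate 1 (adjusted p = 0.00557) and -1.44 without the 4 outlying libraries (adjusted p = 0.0401). MAGEA3 and MAGEA6 share 36.1% of their 100-base windows, so part of the counts of each could belong to the other.

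Counted over the 6 genes, MIR210HG-KO over WT in hypoxia gave 4 higher (MAGEA12, CSAG1, CSAG3 and MAGEA2) and 2 lower (MAGEA3 and MAGEA6), where 24.4% of all tested genes were higher and 30.2% lower. The libraries of both groups did not overlap for 5 of the 6, where 45.0% of all genes did not. MIR210-KO over WT gave 1 higher (MAGEA6), 3 lower (MAGEA12, CSAG3 and MAGEA2) and 2 not called, where 28.2% of all genes were higher and 27.7% lower, and 3 of the 6 did not overlap, against 45.1% of all genes. MIR210HG-KO over MIR210-KO gave 4 higher, 1 lower and 1 not called, where 26.0% of all genes were higher and 29.0% lower, and 5 of the 6 did not overlap, against 50.6% of all genes. Since 54.6%, 55.9% and 55.1% of all genes were called in these 3 comparisons, the number of calls does not by itself set the 6 genes apart. The comparisons share libraries and are not independent of one another.

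**Figure D3:**
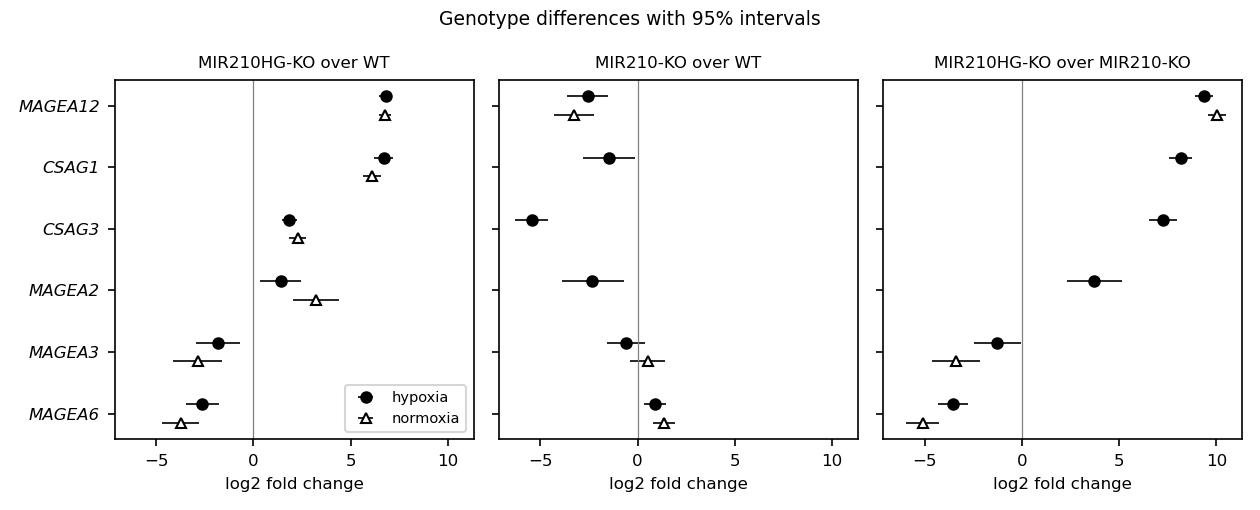
Log2 fold changes (x axis) of the 6 genes with 95% intervals for MIR210HG-KO over WT, MIR210-KO over WT and MIR210HG-KO over MIR210-KO, in hypoxia (filled circles, tested) and normoxia (open triangles, description only). Normoxia values against groups with 1 or 2 counts are left out, and MAGEA12 stands at 6.79 and 6.76 in MIR210HG-KO over WT in hypoxia and normoxia.

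In normoxia, where the genes were chosen, the log2 fold change of MIR210HG-KO over WT was 6.76 for MAGEA12, 6.11 for CSAG1, 2.27 for CSAG3, 3.21 for MAGEA2, -2.87 for MAGEA3 and -3.74 for MAGEA6. All 6 were apart between libraries there, against 35.2% of all genes, and nothing is read from that count. The value for MAGEA12 was 7.36 without normoxia WT replicate 1, which held 34 of the 65 WT counts. MIR210-KO over WT in normoxia was -3.27 for MAGEA12, 0.52 for MAGEA3 and 1.36 for MAGEA6. For genes with 1 or 2 counts over the normoxia MIR210-KO libraries the ratio of CPM to WT is given with its 95% interval, which covers counting error only. It was 0.0329 (0.000808 to 0.197) for CSAG1 with 1 count, 0.00892 (0.000224 to 0.0507) for CSAG3 with 1 count and 0.234 (0.0246 to 1.13) for MAGEA2 with 2 counts, the last of which does not exclude equal levels.

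The 3 genotypes differed in which of the 6 genes held the counts. MAGEA12 took 59.7 to 64.7% of the counts of the 6 genes in hypoxia MIR210HG-KO libraries, 0 to 8.16% in MIR210-KO and 6.67 to 11.5% in WT. MAGEA6 took 0.0604 to 0.509% in MIR210HG-KO, 72.8 to 82.8% in MIR210-KO and 16.0 to 28.5% in WT. CSAG3 took 8.46 to 9.58% in MIR210HG-KO, 0 to 6.25% in MIR210-KO and 43.1 to 49.5% in WT. So in hypoxia MIR210HG-KO libraries held mostly MAGEA12, MIR210-KO libraries mostly MAGEA6 and WT libraries a mixture led by CSAG3. The lead was less clear in normoxia WT libraries, where CSAG3 took 27.1 to 40.7%, MAGEA6 24.0 to 29.7% and MAGEA12 7.69 to 26.4%. These are shares of counts as deposited, and reads that match several copies could have been left out or counted for another copy. The sum of the 6 genes was 1576 to 2258 counts per library in hypoxia MIR210HG-KO, 47 to 81 in MIR210-KO and 105 to 130 in WT.

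**Figure D4:**
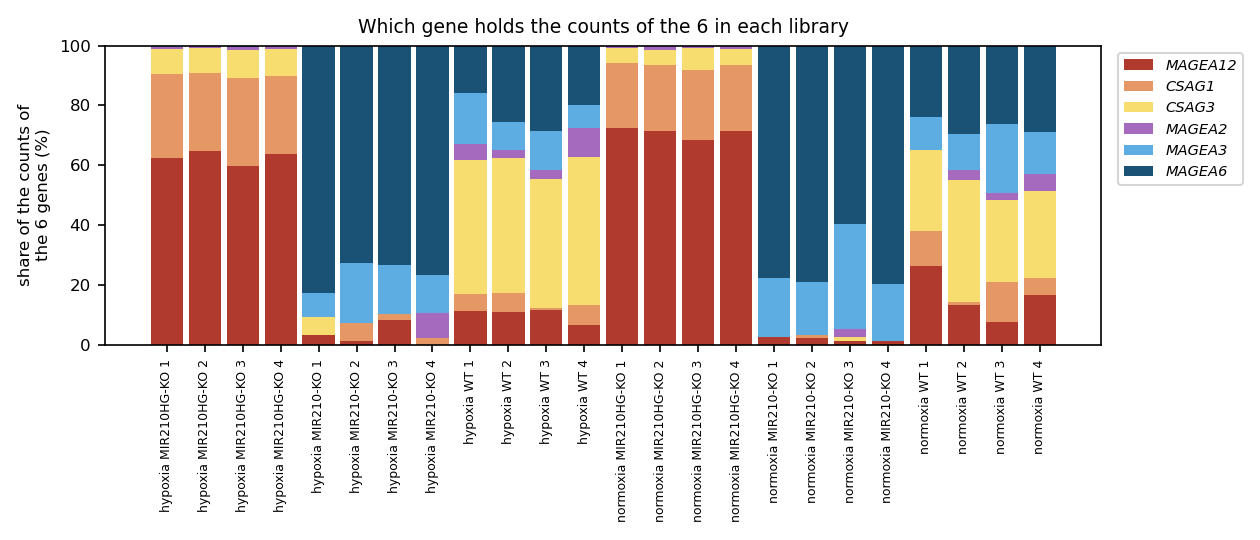
Share (%) of the summed counts of the 6 genes that each gene holds in each library (stacked bars, one per library). MAGEA12 fills 59.7 to 64.7% of the hypoxia MIR210HG-KO bars and MAGEA6 72.8 to 82.8% of the hypoxia MIR210-KO bars.

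Per kb of gene length, the order of levels in hypoxia MIR210HG-KO was MAGEA12 (18.9 ± 0.992 CPM per kb, SD, n = 4), CSAG1 (14.7 ± 1.27), CSAG3 (4.8 ± 0.266), MAGEA2 (0.196 ± 0.0433), MAGEA6 (0.0565 ± 0.0682) and MAGEA3 (0.0549 ± 0.069). Of these neighbours, MAGEA6 and MAGEA3 alone lay within 1 SD of each other. In hypoxia MIR210-KO, MAGEA6 led with 0.72 ± 0.111 CPM per kb before MAGEA3 with 0.141 ± 0.0668, which overlapped CSAG1 within 1 SD, and the last 4 stood at 0.0138 to 0.0445, within their spread. In hypoxia WT, CSAG3 led with 1.35 ± 0.179 CPM per kb, and each neighbour below it, MAGEA6 (0.387 ± 0.11), MAGEA3 (0.218 ± 0.109), MAGEA12 (0.17 ± 0.0561), CSAG1 (0.138 ± 0.0762) and MAGEA2 (0.0731 ± 0.0394), overlapped the next within 1 SD. In normoxia MIR210HG-KO the order was MAGEA12 (33.9 ± 1.75 CPM per kb), CSAG1 (19 ± 0.702), CSAG3 (4.9 ± 0.862), MAGEA2 (0.358 ± 0.0996), MAGEA3 (0.038 ± 0.0272) and MAGEA6 (0.0369 ± 0.0273), with the last pair within their spread. In normoxia MIR210-KO, MAGEA6 had 1.32 ± 0.262 CPM per kb, MAGEA3 0.422 ± 0.142, MAGEA12 0.03 ± 0.0106 and the other 3 at most 0.00964, within 1 SD of MAGEA12 for CSAG3. In normoxia WT, CSAG3 had 1.02 ± 0.28 CPM per kb and MAGEA6 0.515 ± 0.0737, while MAGEA12 (0.302 ± 0.198), MAGEA3 (0.293 ± 0.11), CSAG1 (0.265 ± 0.211) and MAGEA2 (0.0381 ± 0.0284) each overlapped the gene above within 1 SD. By counts as deposited, CSAG3 was thus the highest per kb in WT cells at both oxygen levels, and MAGEA12 in MIR210HG-KO cells. Of the 100-base windows, 2.18% in MAGEA2, 13.4% in CSAG3 and 63.9% in MAGEA3 and in MAGEA6 occur in no other gene. For MAGEA12 and CSAG1 the shares are 100% and 99.6%. How reads with several matches were counted is not given, so levels of the copies may be understated and the order between genes is uncertain.

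Between oxygen levels, MAGEA12 stood lower in hypoxia than in normoxia in MIR210HG-KO cells. These comparisons use the normoxia libraries that chose the genes, so they are given with no test, and since each oxygen level was deposited as its own table, oxygen and table cannot be told apart. In MIR210HG-KO cells MAGEA12 averaged 36.7 ± 1.93 CPM in hypoxia and 65.9 ± 3.39 CPM in normoxia (SD, n = 4 each), a log2 fold change of -0.84 ± 0.099 (SE). CSAG1 averaged 16 ± 1.38 CPM in hypoxia and 20.8 ± 0.767 CPM in normoxia there, a log2 fold change of -0.37 ± 0.14. The libraries of both oxygen levels did not overlap for MAGEA12, CSAG1 and MAGEA2 in MIR210HG-KO cells, where 46.4% of all genes did not, and nothing is read from that count. In MIR210-KO cells they did not overlap for MAGEA3 (-1.54 ± 0.48) and MAGEA6 (-0.87 ± 0.27), both lower in hypoxia, where 54.1% of all genes did not overlap. In WT cells the libraries of hypoxia and normoxia overlapped for all 6 genes. MAGEA12 was at -0.87 ± 0.33 in WT cells, and at -0.28 without normoxia WT replicate 1. The difference of responses to oxygen, MIR210HG-KO minus WT, was 0.03 ± 0.27 on the log2 scale for MAGEA12, with a 95% interval of -0.50 to 0.56, and -0.56 without normoxia WT replicate 1.

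Within the pair of MAGEA12 and CSAG1, the ratio of MAGEA12 to CSAG1 counts in MIR210HG-KO libraries was 2.24, 2.48, 2.04 and 2.45 in hypoxia and 3.32, 3.24, 2.94 and 3.21 in normoxia. Every hypoxia library lay below every normoxia library, with means of 2.3 ± 0.205 in hypoxia and 3.18 ± 0.167 in normoxia (SD, n = 4 each). This ratio was chosen after the levels were seen and uses the normoxia libraries that chose the genes, so it is a description with no test. A ratio within a library does not depend on how the libraries are scaled.

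Other genes of the MAGE families did not move as 1 block. Of the 13 MAGEA genes listed, 7 were tested in MIR210HG-KO over WT in hypoxia, and 4 rose, 2 fell and 1 did not pass, with a median log2 fold change of 1.40 against -0.03 over all genes, of which 24.4% were higher and 30.2% lower. The 7 include 4 of the chosen genes, and MAGEA2B, whose 100-base windows all occur in MAGEA2. Nothing is read from this count or median. Apart from the 4 MAGEA genes described above and MAGEA2B, the tested ones were MAGEA10 and MAGEA8. In hypoxia MAGEA10 had 7, 9, 8 and 0 counts in MIR210HG-KO, 68, 76, 58 and 72 in MIR210-KO and 0, 0, 1 and 1 in WT. It was thus highest in MIR210-KO, where MAGEA12 was lowest, and its ratio of CPM to WT was 148 in MIR210-KO (95% counting interval 40.7 to 1230) and 13.5 in MIR210HG-KO (3.36 to 118). MAGEA8 had 70 counts over hypoxia MIR210HG-KO libraries, 20 over MIR210-KO and 40 over WT, and MIR210HG-KO over WT did not pass (0.96 ± 0.42, adjusted p = 0.0523, edgeR). MAGEA11, MAGEA9B and MAGEA1 had 56, 13 and 17 counts over all 24 libraries. All 3 CSAG genes tested (CSAG1, CSAG3 and CSAG4) rose in MIR210HG-KO over WT, where 24.4% of all genes did. CSAG1 and CSAG3 are among the chosen genes, and CSAG4 could hold reads of MAGEA12, so nothing is read from that count. CSAG4, which overlaps MAGEA12, had 48, 34, 29 and 31 counts in hypoxia MIR210HG-KO, 0, 0, 0 and 1 in MIR210-KO and 0, 1, 1 and 0 in WT.

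Of the MAGEB and MAGEC genes, which lie elsewhere on the X chromosome, 4 were tested and 1 rose and 2 fell in MIR210HG-KO over WT in hypoxia, a comparison in which, for this and the lists that follow, 24.4% of all genes rose and 30.2% fell. MAGEC1 rose (1.37 ± 0.40, adjusted p = 0.00406, edgeR) and MAGEC2 fell (-2.80 ± 0.47, adjusted p = 7.68e-06). In MIR210-KO over WT both rose (1.29 ± 0.40, adjusted p = 0.00657, and 0.87 ± 0.33, adjusted p = 0.0242). MAGEB2, the most counted of them, had 661 counts over hypoxia MIR210HG-KO libraries, 626 over MIR210-KO and 1763 over WT, and MAGEB6 had 24, 146 and 45 in the same order. MAGEB18 had 2, 4 and 7. Of 85 other X-linked cancer-testis genes in the tables, 44 had no counts and 4 were tested, of which 2 fell and 2 did not pass. SAGE1 had 0 counts over hypoxia MIR210HG-KO, 21 over MIR210-KO and 78 over WT, so that MIR210HG-KO was at least 23-fold lower than WT taking 3 counts over its 4 libraries as the floor. PAGE2B fell (-2.37 ± 0.67, adjusted p = 0.00343, edgeR). Of 9 tested type II MAGE genes, which are broadly expressed, 1 rose and 2 fell, led by MAGEE1 (0.78 ± 0.096, adjusted p = 3.25e-08) and MAGEF1 (-0.39 ± 0.064, adjusted p = 4.55e-06). In MIR210-KO over WT MAGEE1 rose (0.80 ± 0.096, adjusted p = 1.83e-08) and MAGEF1 fell (-0.27 ± 0.063, adjusted p = 0.000444) as well. Of 12 tested autosomal germ-cell genes, 2 rose and 3 fell in MIR210HG-KO over WT, with a median of 0.07. Among them SYCP3, of the synaptonemal complex, rose (1.22 ± 0.48, adjusted p = 0.0302). It had 20, 23, 23 and 16 counts in hypoxia MIR210HG-KO libraries and 2, 14, 1 and 23 in WT, so the groups overlapped. The lowest were WT replicates 1 and 3, both among the 4 outlying libraries. STK31, a testis-enriched kinase-like gene, had 3 counts over hypoxia MIR210HG-KO, 38 over MIR210-KO and 218 over WT.

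Defining markers of germ cells were at 0 or low in every group. POU5F1 was the highest, averaging 1.59 CPM in hypoxia MIR210HG-KO, 1.37 CPM in MIR210-KO and 1.42 CPM in WT. DAZL, SYCP1, PIWIL1, PRM1, PRM2 and TNP1 had 0 counts in all 24 libraries, and the 13 markers summed to 2.12 to 3.25 CPM in hypoxia MIR210HG-KO, 1.31 to 2.56 CPM in MIR210-KO and 1.77 to 2.67 CPM in WT, most of it POU5F1. Melanocyte markers, listed because MAGEA antigens were first known from melanoma, summed to 21.8 to 23.7 CPM in hypoxia MIR210HG-KO, 32.7 to 37.6 CPM in MIR210-KO and 34 to 36.3 CPM in WT. The melanocyte genes MITF (-0.68 ± 0.08, adjusted p = 1.33e-08) and DCT (-0.66 ± 0.20, adjusted p = 0.00598) fell in MIR210HG-KO over WT. In MIR210-KO over WT MITF fell as well (-0.32 ± 0.079, adjusted p = 0.000733) and DCT did not pass (adjusted p = 0.551). Of the same list, PMEL (1.61 ± 0.17, adjusted p = 9.48e-10) and TYRP1 (1.47 ± 0.51, adjusted p = 0.0147) rose there. MLANA and SOX10 did not pass (adjusted p of 0.671 and 0.333). Blood and endothelial markers summed to 6.4 to 6.82 CPM in hypoxia MIR210HG-KO, 3.86 to 4.45 CPM in MIR210-KO and 2.97 to 4.46 CPM in WT, with HBB and HBG1, which encode globins, at 0 in all 3 of these groups. Of 5 tested fibroblast markers 2 rose and 2 fell in MIR210HG-KO over WT, led by COL3A1 (1.02 ± 0.096, adjusted p = 1.42e-10) and PDGFRB (-0.90 ± 0.37, adjusted p = 0.0401).

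Genes of DNA methylation, of chromatin repression and of factors reported at MAGEA promoters changed in both directions in MIR210HG-KO over WT in hypoxia. Of 19 tested genes of DNA methylation 9 rose and 5 fell, with a median of 0.15. UHRF1, which guides maintenance methylation (0.57 ± 0.067, adjusted p = 1.53e-08), and TET2, which oxidises methylated cytosine (0.49 ± 0.095, adjusted p = 5.69e-05), both rose. Of 33 tested chromatin repressors 17 rose and 5 fell, with a median of 0.16. EZH2, the methyltransferase of Polycomb repressive complexes, fell to 92.5 CPM in MIR210HG-KO against 201 CPM in WT (-1.12 ± 0.057, adjusted p = 5.73e-17), and SIN3B rose (0.63 ± 0.059, adjusted p = 1.37e-10). Of 13 tested transcription factors reported at MAGEA promoters 5 rose and 6 fell, led by the ETS-family genes ETV5 (-1.80 ± 0.23, adjusted p = 5.28e-08) and ETS1 (-0.82 ± 0.11, adjusted p = 3.26e-07). Of 11 tested genes of MAGEA partner proteins 4 rose and 3 fell, and the nuclear receptor coactivator gene NCOA2 was among those that rose (0.73 ± 0.073, adjusted p = 4.7e-10). These shares stand beside 24.4% higher and 30.2% lower over all genes, and whether any of these genes had a part in the levels of the 6 was not tested. In MIR210-KO over WT in hypoxia UHRF1 (0.49 ± 0.067, adjusted p = 2e-07), SIN3B (0.17 ± 0.059, 0.0131) and NCOA2 (0.33 ± 0.073, 0.000252) rose as well. There EZH2 (-0.49 ± 0.056, adjusted p = 5.6e-09) and ETS1 (-1.68 ± 0.12, 1.78e-13) also fell, while TET2 and ETV5 did not pass (0.313 and 0.583).

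Within 1 Mb of the 6 genes, 63 other genes are annotated in the tables and 23 were tested. In MIR210HG-KO over WT in hypoxia 13 rose, 3 fell and 7 did not pass, with a median log2 fold change of 0.35, against -0.03 over all genes and -0.02 over 707 genes of the X chromosome, and 24.4% of all genes rose while 30.2% fell. Among the 13 were CSAG4, which overlaps MAGEA12, and MAGEA2B, whose 100-base windows all occur in MAGEA2. Part of the counts of both could belong to the 6 genes. In MIR210-KO over WT 10 rose, 3 fell and 10 did not pass, with a median of 0.24, against 0.02 over all genes and 0.08 over the X chromosome, and 28.2% of all genes rose while 27.7% fell. The called neighbours of largest change in MIR210HG-KO over WT, beside CSAG4, MAGEA10 and MAGEA2B, were PNMA3 (-4.37 ± 0.20, adjusted p = 7.26e-18, edgeR), GABRQ (2.81 ± 0.25, adjusted p = 4.91e-11), TREX2 (1.27 ± 0.15, adjusted p = 1.14e-08), the antisense gene U52111.1 (1.15 ± 0.47, adjusted p = 0.0381) and CETN2 (0.93 ± 0.079, adjusted p = 1.29e-11). GABRQ, a subunit of the GABA-A receptor on the MAGEA3 side of the 6 genes, rose in both knockouts (MIR210-KO over WT 3.95 ± 0.23, adjusted p = 1.38e-15), unlike MAGEA12. TREX2 rose in both as well (MIR210-KO over WT 1.28 ± 0.15, adjusted p = 6.65e-09). PNMA3, U52111.1 and CETN2 did not pass in MIR210-KO over WT (adjusted p of 0.175, 0.08 and 0.407). PNMA3, of the paraneoplastic Ma antigen family, averaged 0.212 CPM in hypoxia MIR210HG-KO, 5.01 CPM in MIR210-KO and 4.37 CPM in WT. CETN2, a centrin of the centrosome, averaged 64.5 CPM in MIR210HG-KO, 35.6 CPM in MIR210-KO and 33.8 CPM in WT.

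Over the 24 libraries, the log2 CPM of MAGEA12 correlated with that of CSAG1 at r = 0.978, MAGEA2 at 0.867, CSAG3 at 0.864, MAGEA3 at -0.758 and MAGEA6 at -0.937 (Pearson, prior count of 2). The libraries share 6 groups, so these values mostly describe differences between group means, and no p is given. Outside the 6 genes the highest r belonged to TTLL5 (0.972, chromosome 14), PLA2G4C-AS1 (0.968, chromosome 19), CSAG4 (0.963), CXCL12 (0.961, chromosome 10) and ABCD4 (0.96, chromosome 14). By Spearman's rank correlation the 5 highest were TMEM43, PRUNE1, TNMD, CDCA3 and CXCL12, so CXCL12 alone was on both lists. CXCL12, a chemokine gene, averaged 4.14 ± 0.61 CPM in hypoxia MIR210HG-KO and 0.218 ± 0.155 CPM in WT (SD, n = 4), with 0 counts in MIR210-KO. PLA2G4C-AS1 had 96 counts over hypoxia MIR210HG-KO libraries and 0 over both MIR210-KO and WT. TTLL5, a polyglutamylase of tubulin, spanned a far narrower range, with 57.6 ± 2.15 CPM in hypoxia MIR210HG-KO, 33.5 ± 1.62 CPM in MIR210-KO and 37.9 ± 1.32 CPM in WT.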

How the data were processed

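The authors deposited raw read counts per gene, one table for each oxygen level, with gene names, positions and lengths. Per the submitters' processing notes the genome build was GRCh38 and the tools named were featureCounts 1.5.0-p3, STAR 2.6.1d, edgeR 3.24.3 and DESeq2 1.20.0, with no roles given. Strand setting, treatment of reads with several matches and annotation release are not given in the sources used here. Library totals were 25556776 to 37858947 counts. The 58735 genes of the 24 libraries were filtered with filterByExpr, which kept 19952 and all 6 genes described, each through the groups in which it is high. Counts were scaled by TMM and fitted with 1 mean per group in edgeR 4.0.16 (R 4.3.3). Contrasts used two-sided quasi-likelihood F tests, Benjamini-Hochberg adjustment over all genes tested and a threshold of 0.05. Adjusted p values are from edgeR unless another tool is named. The ± after a log2 fold change is its standard error, and 95% intervals are normal ones from it unless called counting intervals, which are exact (Clopper-Pearson on the split of counts). The fit was tested on simulated counts. Promoter sequences are from RefSeq (GRCh38.p14), and 100-base windows from GENCODE release 29 transcripts. For the 6 genes, contrasts that use the normoxia libraries are given with no p, since those libraries chose the genes, although a test of the oxygen contrasts had been planned. The genes, the 15 lists and the tests were chosen with earlier results of these data known. Genes named are the 6, MAGEA, MAGEB, MAGEC and CSAG genes with at least 10 counts (the antisense and pseudogene transcripts MAGEA8-AS1 and MAGEA7P are not described), the 2 called genes of largest change per list in MIR210HG-KO over WT in hypoxia, at most 8 called genes within 1 Mb and the 5 genes most correlated with MAGEA12. Of these, 2 genes of the lists are not reported here. Alternatives were RLE size factors, DESeq2 1.42.0, other filters, a fit per oxygen level, a replicate block, each library left out, and 4 outlying libraries left out.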

Additional observations from a re-analysis of the deposited data

Results flagged for a closer look

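In 8 of 36 combinations of gene and group, 1 of the 4 libraries lay far from the other 3, with its gap to the nearest library, as a share of the group's range in CPM, past Dixon's 95% critical value for 4 samples. Chance gives such a gap in about 1 of 20 groups of continuous values. That rate does not apply where 1 library alone holds the counts, since the gap is then 1.0 by construction, which was so in 5 of the 8. The gap was 1.0 of the range where 1 library alone held counts: CSAG1 in normoxia MIR210-KO (replicate 2), CSAG3 in hypoxia MIR210-KO (replicate 1) and in normoxia MIR210-KO (replicate 3), and MAGEA2 in hypoxia MIR210-KO (replicate 4) and in normoxia MIR210-KO (replicate 3). The gap was 0.968 for CSAG3 in normoxia MIR210HG-KO (replicate 3, 180 counts), 0.969 for MAGEA2 in the same group (replicate 2, 30 counts) and 0.922 for MAGEA6 in hypoxia MIR210HG-KO (replicate 3, 11 counts).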

How the results depend on the processing

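In the 3 genotype comparisons in hypoxia, 555 values of a gene under an alternative were computed: 538 kept their direction and side of the threshold, 9 no longer passed, 7 newly passed and 1 changed direction, MAGEA3 in MIR210-KO over WT, which was not called and stood at 0.33 without the 4 outlying libraries. Of 1458 values in comparisons given with no test, 21 changed sign or came to 0.00. In MIR210HG-KO over WT in hypoxia, 1 gene in place of 2 was called lower both in the fit of hypoxia libraries alone, where MAGEA3 was removed by the filter on low counts, and without the 4 outlying libraries. In MIR210HG-KO over MIR210-KO in hypoxia, 2 genes in place of 1 were called lower without those 4 libraries, and 1 to 2 with each library left out. With each library left out, MAGEA12 in the oxygen response of MIR210HG-KO minus WT ranged from -0.56 to 0.26, and in hypoxia over normoxia in MIR210HG-KO from -0.87 to -0.82. Same-numbered libraries did not deviate together (correlations of -0.071 to 0.12, with 1 of 24 pairs over 0.1), so the numbers are not taken as pairs. A replicate block changed no call, and with it MAGEA12 in MIR210HG-KO over WT in hypoxia was 6.79. Plain library totals in place of TMM gave MAGEA12 levels of 39.6 CPM in hypoxia MIR210HG-KO and 62.4 CPM in normoxia MIR210HG-KO. Depth limits the values of MIR210-KO cells, where 4 of the 6 genes had 1 to 7 counts over a group.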
